A study of Rattus norvegicus with 12 samples.

Results

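Cytotoxic granule and natural killer (NK) receptor genes were followed through the rat liver in 10 genes, fixed by name: the granzymes Gzma, Gzmk, Gzmm and Gzmb, the pore former Prf1, the granule membrane gene Nkg7, the receptors Klrd1, Klrb1a and Ncr1, and the transcription factor gene Tbx21. They are 10 of the 32883 genes in the deposited gene list. All 10 had at least 1 UMI (unique molecular identifier, a count of captured mRNA molecules) in the immune-enriched libraries, and all but Gzmb had one in total liver homogenate and in nuclei. The study mapped livers of healthy male rats of the inbred strains Dark Agouti (DA) and Lewis (LEW), which were co-housed and fed a standard diet with no treatment. Total liver homogenate (TLH), a collagenase digest of the whole organ, was profiled from 2 DA and 2 LEW rats with 10x 3′ v2 chemistry. An immune-enriched suspension, made with further washing, differential centrifugation and red cell depletion, was profiled from 1 DA and 1 LEW rat with v3 chemistry, and nuclei from 2 rats of each strain also with v3. Tissue sections of 2 Wistar livers were measured with Visium. The labels give an age of 8 to 10 weeks for the homogenate rats, whereas the names of the deposited homogenate tables carry 10 weeks for DA and 13 weeks for LEW, while the study's methods describe the strains as age matched and older than either. By the table names, age and strain cannot be told apart in homogenate, and the sources do not settle it. The immune-enriched tables carry 9 weeks for both strains.

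NK cells and cytotoxic T cells kill by emptying granules onto a target cell. Perforin, the product of Prf1, opens the target's membrane, and granzymes, which are serine proteases, enter and cleave proteins inside. Klrd1 encodes CD94, a partner chain of NKG2 receptors. Klrb1a encodes an NKR-P1 lectin-like receptor, Ncr1 encodes the activating receptor NKp46, and Tbx21 encodes T-bet, a T-box factor of NK and T helper 1 cells. The liver is known for a large resident pool of NK and NK-like lymphocytes in its sinusoids.

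The promoters of the 5 granule genes on which the results turn are shown here, to set the granzymes read at high level in NK-like cells beside Gzmb, which gave a single UMI there. Each is the 250 bases before the annotated start, from RefSeq on the GRCr8 build, which is not the build of the deposited counts. Capitals mark the core of a T-box site (GGTGTG) and the core of a RUNX site (TGTGGT), searched on both strands, with their reverse complements CACACC and ACCACA. The cores do not overlap in these windows. Gzma (chr2:46485697-46485946, minus strand), Gzmk (chr2:46582016-46582265, minus strand), Gzmm (chr7:10667257-10667506, minus strand), Prf1 (chr20:29788790-29789039, plus strand) and Gzmb (chr15:34462470-34462719, minus strand) follow in that order.
Gzma: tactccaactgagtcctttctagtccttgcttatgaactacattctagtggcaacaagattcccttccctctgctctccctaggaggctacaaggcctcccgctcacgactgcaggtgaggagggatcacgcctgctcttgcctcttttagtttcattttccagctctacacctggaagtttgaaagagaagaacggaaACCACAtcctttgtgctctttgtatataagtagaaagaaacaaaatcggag
Gzmk: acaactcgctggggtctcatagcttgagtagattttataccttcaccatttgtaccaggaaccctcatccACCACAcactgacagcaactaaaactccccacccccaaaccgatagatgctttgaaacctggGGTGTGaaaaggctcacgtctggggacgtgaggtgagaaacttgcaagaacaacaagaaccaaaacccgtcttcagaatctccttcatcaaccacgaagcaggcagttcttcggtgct
Gzmm: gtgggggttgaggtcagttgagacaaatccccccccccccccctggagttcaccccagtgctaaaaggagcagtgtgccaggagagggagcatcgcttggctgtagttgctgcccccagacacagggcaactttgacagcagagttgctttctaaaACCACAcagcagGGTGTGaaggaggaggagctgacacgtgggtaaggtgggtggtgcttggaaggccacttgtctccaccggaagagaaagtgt
Prf1: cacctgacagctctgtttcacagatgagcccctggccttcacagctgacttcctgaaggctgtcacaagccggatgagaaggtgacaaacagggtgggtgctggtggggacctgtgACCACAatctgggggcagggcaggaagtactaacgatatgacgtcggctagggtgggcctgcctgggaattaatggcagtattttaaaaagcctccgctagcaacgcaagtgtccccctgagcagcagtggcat
Gzmb: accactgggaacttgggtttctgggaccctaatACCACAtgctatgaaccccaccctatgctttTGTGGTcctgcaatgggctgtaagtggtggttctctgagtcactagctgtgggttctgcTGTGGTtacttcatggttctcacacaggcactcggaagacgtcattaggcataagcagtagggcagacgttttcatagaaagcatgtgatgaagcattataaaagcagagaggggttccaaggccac

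Gzma and Gzmk lie near each other on chromosome 2, both on the minus strand. A RUNX core was found in 6 of the 8 members with a promoter sequence, namely Gzma, Gzmb, Gzmk, Gzmm, Nkg7 and Prf1, and in 14.5% of all 33469 promoters of the same length. A T-box core was found in Gzmk, Gzmm and Klrb1a, 3 of the 8, and in 15.4% of all promoters. Gzmk and Gzmm held both cores, as did 3.56% of all promoters. Gzmb held 3 RUNX cores, more than any other member, and Tbx21 held none of either. Klrd1 and Ncr1 had no promoter sequence here.

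After limits on UMIs and mitochondrial share, 3844 to 7112 cells per homogenate library, 1163 DA and 2677 LEW immune-enriched cells and 2205 to 5262 nuclei per library were kept. These limits follow the study but for LEW homogenate, where 2000 UMIs were required in place of its 1500, which would keep 12124 and 7857 cells. With the limits used here, the number of cells kept in each homogenate library equals the number in the study's final map. Median UMIs per cell were 1794 to 2546 in homogenate, 4090 and 5581 in the immune-enriched libraries and 1542 to 2059 in nuclei. The 4 nuclei libraries shared 8 to 24 barcodes in each pair of libraries, of which 1 to 6 were kept in both. Cells were clustered on counts from which the members had been removed, and clusters were named from other marker genes. NK-like cells carried UMIs of 12 of 14 NK markers in the DA immune-enriched library and 13 of 14 in the LEW one, led by the chemokine genes Ccl5 and Xcl1. Eomes, a T-box factor gene of conventional NK cells, was nearly unread in them, at 0 UMIs in DA and 1 in LEW.

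The members were concentrated in NK-like cells. The immune-enriched libraries held 132 DA and 60 LEW NK-like cells, 11.3% and 2.24% of the kept cells. These cells held between 87.6% and 96.7% of each tested member's UMIs in DA and between 74.0% and 83.1% in LEW, Gzmb aside. The 10 members together took 18271 CPM (UMIs per 1000000 UMIs of the class) in DA NK-like cells and 25014 CPM in LEW. The sum was 424 and 278 CPM in T-like cells, and B-like cells had none. With T cells gated on marker genes in place of clusters, the T cell sum was 652 CPM in DA and 1350 CPM in LEW, so the order of the strains turned, and 1 DA and 5 LEW gated cells then carried Gzma, Gzmk and Gzmm together. An NK-like cell carried a median of 8 of the 10 members in either library, or 6 once every cell was thinned to 1000 UMIs, since deeper cells show more genes. Intervals below are exact 95% intervals, Poisson for CPM and binomial for shares, and they cover counting error only. With 1 library per strain the immune-enriched strains have no replicate check and no test.

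**Figure D1:**
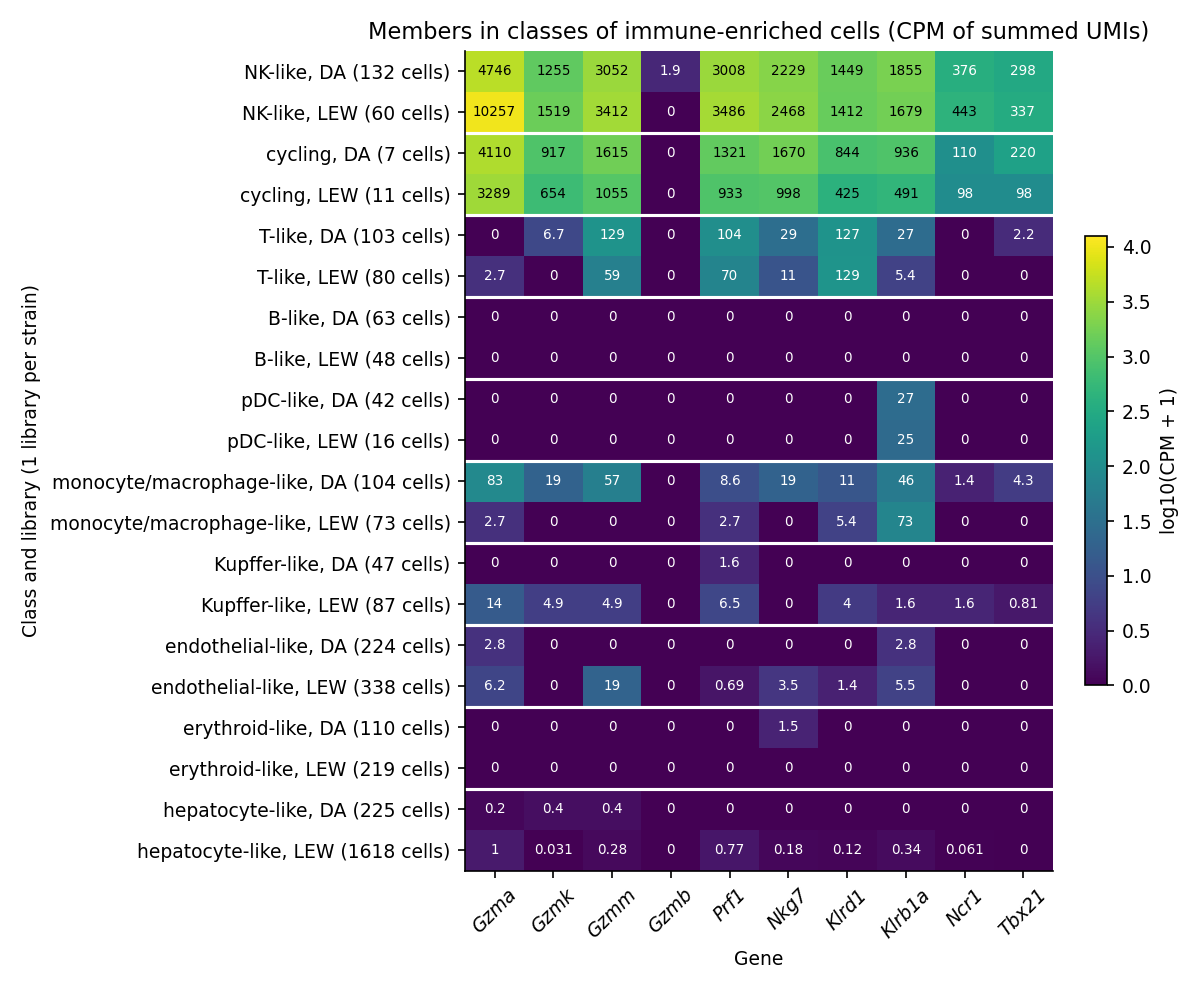
Level of each member (columns, CPM of summed UMIs printed in each tile, colour on a log10 scale of CPM + 1) in classes of immune-enriched cells (rows, DA and LEW library of each class, with the number of cells). NK-like cells, and the few cycling cells, carry all members but Gzmb at high level, T-like cells carry mainly Gzmm, Prf1 and Klrd1, and hepatocyte-like cells stay at or under 1.01 CPM.

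Among the granzymes, Gzma was read most. In NK-like cells it stood at 4746 CPM in DA (interval 4564 to 4933) and 10257 CPM in LEW (interval 9859 to 10667). Gzmm, a granzyme of innate lymphocytes, stood at 3052 and 3412 CPM, and Gzmk, a tryptase-like granzyme, at 1255 and 1519 CPM. Levels are UMI counts taken at the 3′ end, which do not grow with transcript length, but capture can differ between genes. Gzmm was the granzyme found in most NK-like cells, with a UMI in 98.5% of DA and 100% of LEW cells. Gzma was found in 87.1% and 90.0%, and Gzmk in 68.2% and 81.7%. Thinned to 1000 UMIs, the shares were 92.4% and 91.7% for Gzmm, 84.1% and 86.7% for Gzma, and 47.7% and 50% for Gzmk. In hepatocyte-like cells, which should lack granzymes and had median depths of 26317 and 12221 UMIs against 4007 and 3980 in NK-like cells, at most 1.42% of cells had a UMI of any member.

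Gzmb, the granzyme best known from killer cells of other species, gave 1 UMI in 132 DA NK-like cells and 0 in 60 LEW cells, which allows a share of up to 5.00% of LEW cells with a UMI. Homogenate and nuclei held none at all. The granzyme B-like gene Gzmbl2 was read in the same NK-like cells, at 515 CPM in DA and 846 CPM in LEW. Its neighbours in name, Gzmbl1, Gzmbl3, Gzmc, Gzmf and Gzmn, lay between 0 and 32.8 CPM. These genes are near copies of one another, and reads that match several copies can be lost or given to another copy in counting, so the split between Gzmb and its copies is uncertain.

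Prf1 followed the granzymes closely. It stood at 3008 CPM in DA and 3486 CPM in LEW NK-like cells and was found in 96.2% and 98.3% of them (89.4% and 95% thinned). Nkg7, needed for granule release, stood at 2229 and 2468 CPM in 96.2% and 96.7% of cells. Both covered nearly every NK-like cell of either library.

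The receptors ran lower. Klrb1a stood at 1855 CPM in DA and 1679 CPM in LEW, and Klrd1 at 1449 and 1412 CPM, and each had a UMI in at least 93.3% of NK-like cells. Klrb1a has close relatives in the gene list, Klrb1 and Klrb1c, which stood at 5.56 and 213 CPM in DA. Ncr1 stood at 376 and 443 CPM and Tbx21 at 298 and 337 CPM, the lowest of the members but for Gzmb. Both were found in 65.2% to 73.3% of NK-like cells, and in 25.0% to 36.7% after thinning. In DA the order of levels from Gzma through Gzmm and Prf1 to Nkg7, Klrb1a, Klrd1, Gzmk, Ncr1 and Tbx21 had overlapping counting intervals for Gzmm with Prf1, Klrd1 with Gzmk and Ncr1 with Tbx21. In LEW the intervals overlapped for Prf1 with Gzmm, for each pair among Klrb1a, Gzmk and Klrd1, and for Ncr1 with Tbx21.

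Single NK-like cells differed widely in Gzma and Gzmk. Gzma ran from 0 to 111 UMIs per cell in DA (median 16.5) and from 0 to 231 in LEW (median 33.5). The lower, middle and upper quartiles of Gzma were 1675, 4284 and 7237 CPM in DA and 2558, 9018 and 15914 CPM in LEW. Gzmk was the most uneven member of those read in both libraries. Its highest 14 DA cells held 50.1% of its UMIs and its highest 6 LEW cells 40.8%, whereas the same numbers of cells held 22.0% and 19.9% of Gzmm.

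T-like cells, as clustered, held a narrower set. They were named from Cd3d, Cd3e, Cd3g and other T cell genes, with 103 cells in DA and 80 in LEW at median depths of 4169 and 4399 UMIs. Prf1 had a UMI in 34.0% of DA T-like cells (interval 24.9 to 44.0) and 30% of LEW cells (20.3 to 41.3). Klrd1 had one in 32.0% and 36.2%. Gzmm followed in 5.83% and 8.75% of cells. Gzma was found in 0 of 103 DA cells, which allows a share of up to 2.91%, and in 1 of 80 LEW cells, and Gzmk in 2 and 0 cells. The Prf1 and Klrd1 shares lie far above the share in hepatocyte-like cells, at most 0.371% and 0.124%. Most of the T-like cells with Prf1 carried a single UMI of it, as 35 DA cells held 47 UMIs and 24 LEW cells held 26. The level of Prf1 in T-like cells was 104 CPM in DA and 70.1 CPM in LEW, against 3008 and 3486 CPM in NK-like cells, and thinned to 1000 UMIs the share fell to 8.74% and 5.00% of cells.

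Cd8a split the T-like cells by their Gzmm. In T-like cells with a Cd8a and no Cd4 UMI, 27 in DA and 26 in LEW, Gzmm was found in 18.5% and 23.1%. In the 70 DA and 50 LEW cells with neither, it was found in 1.43% and 2.00%. Klrd1 was found in 51.9% and 57.7% of the Cd8a cells and in 24.3% and 24.0% of the others. Prf1 differed less, at 44.4% and 38.5% against 30% and 26.0%. As counted, the Cd8a cells had the higher share of all 3 genes in both libraries. Thinned to 1000 UMIs this held for Gzmm, at 14.8% and 11.5% against 0% in both, but not for Prf1 in DA (0% against 10.0%) or Klrd1 in LEW (11.5% against 12.0%). NK-like cells themselves carried Cd8a, at 1129 and 1100 CPM, above the 282 and 394 CPM of T-like cells, while their summed Cd3d, Cd3e and Cd3g stayed far lower than in T-like cells.

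**Figure D2:**
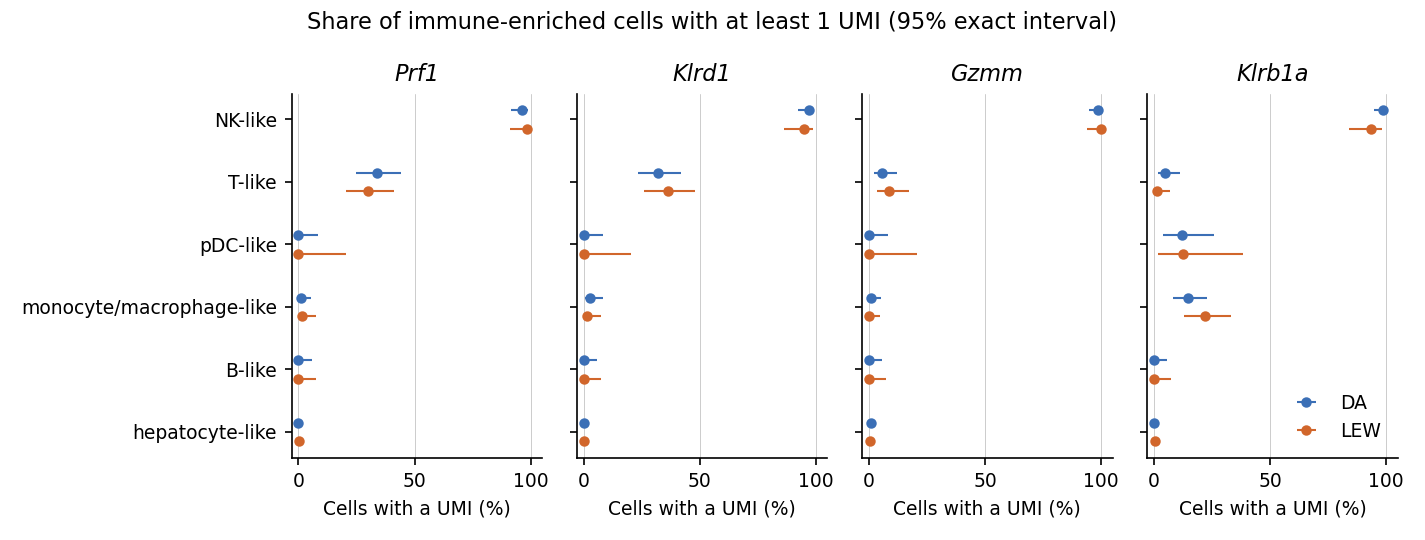
Share of immune-enriched cells with at least 1 UMI (x axis, percent, with exact 95% intervals) of Prf1, Klrd1, Gzmm and Klrb1a in 6 cell classes (rows), DA in blue and LEW in orange. Prf1 and Klrd1 extend into 30% to 36.2% of T-like cells. Klrb1a extends into monocyte/macrophage-like and pDC-like cells, where the other 3 are at or near 0. The monocyte/macrophage-like class also joins clusters with dendritic cell and neutrophil genes.

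In the immune-enriched libraries, Klrb1a was the member that reached beyond lymphocytes. The class named monocyte/macrophage-like joined 3 clusters, 1 of them with dendritic cell genes and 1 with neutrophil genes. Klrb1a was found in 9 of 26 cells of the cluster led by S100a9, S100a8 and Retnlg, which are known from neutrophils, at 255 CPM over both libraries. In the cluster with Cst3, Clec10a, Clec9a and class II genes, which dendritic cells carry, it was found in 16 of 69 cells, at 59.7 CPM. In the remaining cluster, led by Mal and Eno3 with S100a4, it was found in 6 of 82 cells, at 18.9 CPM. Over the joint class it had a UMI in 14.4% of 104 DA (interval 8.30 to 22.7) and 21.9% of 73 LEW monocyte/macrophage-like cells (13.1 to 33.1), at 45.9 and 73.3 CPM. In pDC-like cells, the plasmacytoid dendritic cells that make interferon, it was found in 5 of 42 DA and 2 of 16 LEW cells, at 27.2 and 24.7 CPM, and no other member was read there. A small unnamed leukocyte subcluster led by class II genes had it in 5 of 15 DA and 0 of 8 LEW cells. The hepatocyte-like background for Klrb1a was 0 of 225 DA cells and 0.433% of 1618 LEW cells. T-like cells had Klrb1a in 4.85% and 1.25% of cells, below the monocyte/macrophage-like shares, at median depths of 4169 and 4399 UMIs against 4945 and 3540. Thinned to 1000 UMIs, the monocyte/macrophage-like shares were 4.81% and 6.85%, a level of 5 cells in either library, against 0.971% and 0% in T-like cells. In homogenate, Klrb1a was found in 7 of 233 monocyte/macrophage-like cells, at 11.8 CPM, and Gzma in 3. In 136 homogenate pDC-like cells, Klrb1a and Klrd1 were found in 2 cells each, and Gzma, Gzmm and Prf1 in 1 each. Klrb1a was therefore not set apart from the other members in that class. Median depths of these homogenate classes were 2646 and 2635 UMIs.

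Elsewhere few cells carried the members. Kupffer-like, endothelial-like and erythroid-like cells summed to between 0 and 38.1 CPM over the 10 members. In DA monocyte/macrophage-like cells Gzma stood at 83.2 CPM, but 58 UMIs came from 2 cells, and 1 cell carried at least 5 members. In LEW mesenchymal-like cells 2 of 42 cells carried at least 5 members. Whether such barcodes held 2 cells was not tested. Cycling cells, 7 in DA and 11 in LEW, carried every member but Gzmb, with Gzma at 4110 and 3289 CPM, and 5 and 6 of them had at least 5 members.

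Most NK-like cells carried Gzma, Gzmk and Gzmm together. All 3 were detected in 81 of 132 DA cells, 61.4% (interval 52.5 to 69.7), and in 45 of 60 LEW cells, 75.0% (62.1 to 85.3). The product of the 3 separate shares is 58.5% in DA and 73.5% in LEW, close to the observed values. In DA, 43 cells had 2 of the granzymes, 6 had 1 and 2 had none; in LEW the numbers were 13, 2 and 0. Every NK-like cell with Gzma or Gzmk also had Gzmm, but Gzmm had a UMI in 190 of 192 NK-like cells, so this was nearly fixed beforehand. Thinned to 1000 UMIs, all 3 were found in 38.6% and 40% of cells. No T-like cell of the clusters had all 3, but with T cells gated on marker genes 1 of 109 DA and 5 of 92 LEW cells did.

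**Figure D3:**
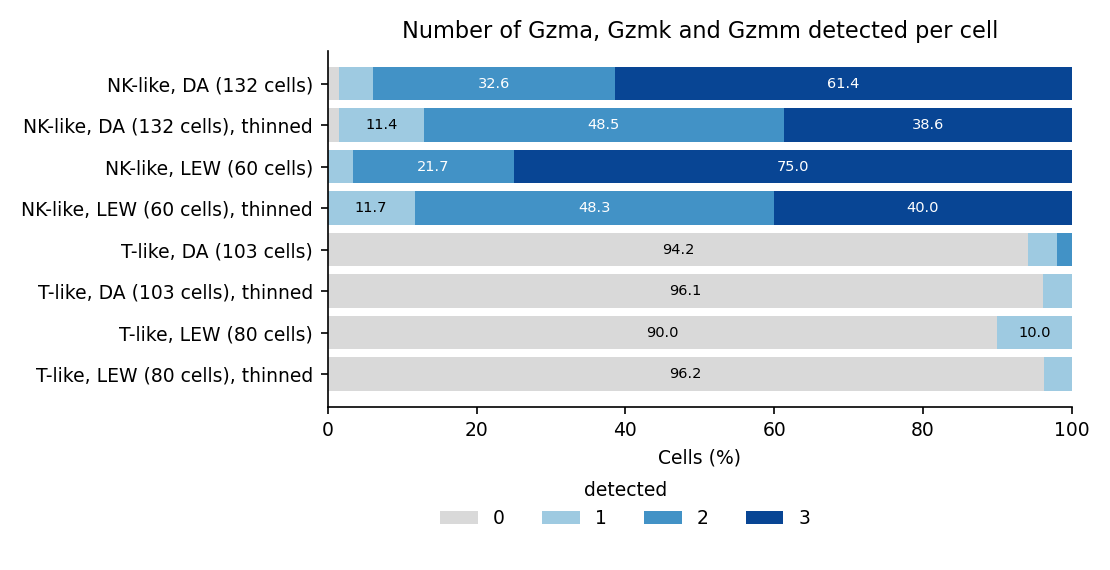
Share of cells (x axis, percent) with 0, 1, 2 or all 3 of Gzma, Gzmk and Gzmm detected, for NK-like and T-like cells of each immune-enriched library, as counted and thinned to 1000 UMIs. The NK-like bars are dominated by 2 or 3 granzymes and the T-like bars by none, and the NK-like bars lose granzymes in both strains after thinning.

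Most T-like cells with Prf1 had no granzyme UMI. Prf1 without any of the 3 granzymes was found in 31 DA T-like cells, 30.1%, and in 20 LEW T-like cells, 25.0%. Of the few T-like cells with Gzmm, 4 of 6 in DA and 4 of 7 in LEW also had Prf1. In NK-like cells nearly every cell had a granzyme, and a granzyme without Prf1 was found in 3 DA and 1 LEW cells. After thinning, Prf1 without a granzyme was found in 8.74% and 5.00% of T-like cells.

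NK-like cells with Gzmk had a higher level of Gzma and Gzmm than those without. Gzmk was detected in 70.4% of DA NK-like cells with Gzma and 52.9% of those without, and in 83.3% and 66.7% in LEW, where only 6 cells lacked Gzma. In LEW, the 49 cells with Gzmk had Gzma at 11264 CPM and the 11 cells without at 5169 CPM. In DA the gap was smaller, at 4919 CPM in 90 cells and 4333 CPM in 42 cells. Gzmm stood at 3303 against 2452 CPM in DA and 3625 against 2336 CPM in LEW. Prf1 was nearly level in DA, at 3001 and 3025 CPM. The split was made on a count from the same cells, so depth and granzyme content move with it, and it is a description.

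Few NK-like cells carried T cell receptor complex genes. Cells with 2 or 3 of Cd3d, Cd3e and Cd3g numbered 5 in DA and 6 in LEW. In DA they had Prf1 at 92.0 CPM against 3130 CPM in the 127 NK-like cells with none of the 3, and Gzma at 1471 against 4884 CPM. In LEW they had Prf1 at 2270 against 3591 CPM and Gzma at 12178 against 10091 CPM. With so few cells the strains' Cd3-positive cells cannot be compared further, and the other NK-like cells were at 4884 CPM of Gzma in DA, close to the 4746 CPM of all NK-like cells.

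Likeness in pattern was measured over classes. Over 22 points, the classes with at least 20 cells in either immune-enriched library, Pearson's r of log2(CPM + 10) was taken between each of 10891 genes and the summed members. The points share libraries, depth and free RNA, so r is a description. The highest were AABR07027872.1 (r = 0.944), the chemokine gene Ccl5 (0.929), the adaptor gene Sh2d2a (0.925), the Ly49 receptor gene Ly49s6 (0.922) and the kinase gene Txk (0.920). Cd226, Klrb1c, Socs1, Tnfrsf18 and Sh2d1a completed the 10, down to 0.908. Gzma and Tbx21 were nearest to Mcpt1l4 (0.976 and 0.997), Gzmk to the chemokine gene Xcl1 (0.998), Ncr1 to Gzmbl2 (0.998) and Nkg7 to Il2ra (0.985). Gzmm and Prf1, which extend into T-like cells, were nearest to AABR07027872.1 (0.983) and Ly49s6 (0.984), and Klrd1 to Txk and Sh2d2a at 0.993. Klrb1a was nearest to the receptor gene Klri1 (0.970) and to Il18rap (0.957). Gzmb rests on 1 UMI in these points.

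In the immune-enriched NK-like cells, Gzma was the member that differed most between the strains. Its level was 2.16-fold higher in LEW (counting interval 2.04 to 2.28), or 1.94-fold to 2.20-fold under the 6 ways of choosing and averaging the cells. Of the 9 members with at least 50 UMIs, 1 was at least 2-fold higher in LEW and 0 were as much lower, beside 4.98% of 1828 genes at least 2-fold higher. Gzmk was 1.21-fold higher (1.06 to 1.38), Prf1 1.16-fold, Gzmm 1.12-fold and Nkg7 1.11-fold. The intervals of Klrd1 (0.856 to 1.11), Klrb1a (0.805 to 1.02), Ncr1 (0.925 to 1.5) and Tbx21 (0.854 to 1.48) include equal levels. Gzmbl2 was 1.64-fold higher in LEW (1.36 to 1.97). LEW NK-like cells also carried more hepatocyte marker UMIs, with 19 hepatocyte markers at 18563 CPM against 1584 CPM in DA. The 14 NK markers stood at 52495 CPM in LEW and 51700 CPM in DA. The source of the hepatocyte marker UMIs and their part in the fold were not tested.

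Homogenate gives 2 rats per strain and so a test of the same question. NK-like cells numbered 135 and 95 in the DA rats and 100 and 58 in the LEW rats. The mitochondrial limit differed between the strains, at 30% and 20% in the DA rats and 40% in the LEW rats. No T-like cluster was found in homogenate. Hepatocyte markers took 72757 to 92475 CPM of the NK-like UMIs in the 4 rats, far more than in the immune-enriched libraries, and the strains overlapped. UMIs were summed over NK-like cells of each rat and compared with edgeR's quasi-likelihood test, with Benjamini-Hochberg adjustment over 2809 genes. Nothing in the labels ties rats of the different platforms to one another.

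Gzma was higher in NK-like cells of LEW homogenate. It stood at 953 and 977 CPM in the DA rats and at 3409 and 3661 CPM in the LEW rats. Both LEW rats lay far above both DA rats, while rats of a strain differed little. The log2 difference, LEW minus DA, was 1.80 ± 0.17 (SE, n = 2 rats per strain; adjusted p = 0.00038 by edgeR). It was called in 11 of 12 alternative analyses, with a log2 difference between 1.57 and 1.87. In the remaining analysis, a block for same-numbered rats, no member was called (Gzma adjusted p = 0.234, edgeR). The share of NK-like cells with a Gzma UMI, thinned to 1000 UMIs, was 52.6% and 56.8% in DA and 86.0% and 82.8% in LEW. An NK gate on marker genes found 64 and 64 cells in DA and 71 and 47 in LEW, fewer than the clusters held. The part of other cells in these shares was not tested.

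Nkg7, Gzmk and Prf1 also passed the test, all higher in LEW. Nkg7 stood at 651 and 671 CPM in DA and 1374 and 1785 CPM in LEW (log2 difference 1.18 ± 0.20 SE, adjusted p = 0.0119, edgeR). Gzmk stood at 166 and 250 CPM in DA and 478 and 497 CPM in LEW (1.15 ± 0.25, adjusted p = 0.0390). Prf1 stood at 468 and 548 CPM in DA and 1049 and 875 CPM in LEW (0.85 ± 0.19, adjusted p = 0.0460). None of the 3 overlapped between strains. In immune-enriched NK-like cells, with 1 library per strain and no test, Nkg7, Gzmk and Prf1 were 1.11-fold, 1.21-fold and 1.16-fold higher in LEW. The 4 called members are 4 of 9 tested, beside 0.961% of the 2809 genes called higher in LEW. Of 12 alternative analyses, Nkg7 was called in 10, Gzmk in 6 and Prf1 in 4. Without LEW rat 2 Gzmk and Prf1 each had an adjusted p of 0.0614, and without LEW rat 1 that of Prf1 was 0.276. With the UMI limit of 1500 that the study states for LEW and all cells clustered anew, Gzma alone stayed called, and Nkg7 had an adjusted p of 0.0833.

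The other members were not called, although a gate on marker genes in place of clusters called 6 of 8, Gzmm and Klrd1 among them. With that gate, 48 of 1929 genes tested were called higher in LEW. The values here are for the clusters. Gzmm stood at 700 and 751 CPM in DA and 1146 and 1302 CPM in LEW (log2 difference 0.68 ± 0.18 SE, adjusted p = 0.0818, edgeR), and Klrd1 at 245 and 242 CPM against 366 and 525 CPM (0.77 ± 0.25, adjusted p = 0.157). Both genes had each LEW rat above each DA rat. Klrb1a stood at 286 and 302 CPM against 381 and 357 CPM (0.26 ± 0.22, adjusted p = 0.625). Ncr1, with 13 to 28 UMIs per rat, and Tbx21, with 7 to 24, were too thinly read for a firm value, at 0.67 ± 0.34 and 0.35 ± 0.41. In all, 8 of 9 members, all but Tbx21, had both LEW rats above both DA rats, beside 24.6% of all genes tested. The median log2 difference of the 9 members was 0.77, and that of all 2809 genes was -0.02.

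**Figure D4:**
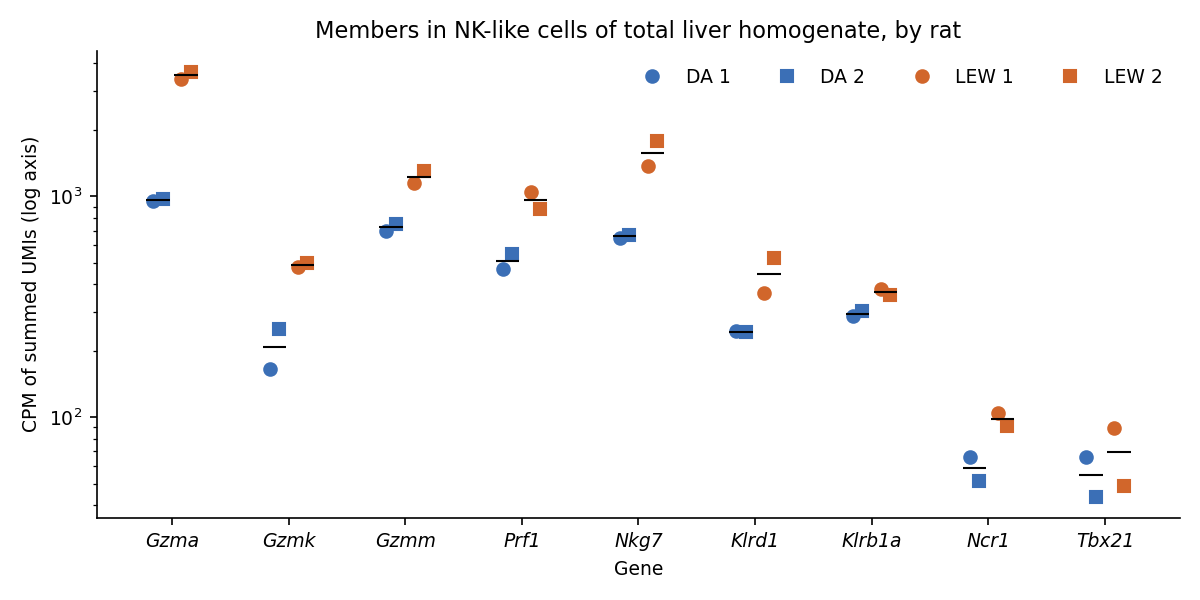
Level (y axis, CPM of summed UMIs, log axis) of 9 members in NK-like cells of each homogenate rat (2 DA in blue, 2 LEW in orange), with short lines at strain means. The LEW rats sit above the DA rats for every gene but Tbx21, and Gzma has the widest gap.

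The NK markers that named the class had differences of like size in homogenate. The 10 NK markers tested had a median log2 difference of 0.82, with 0 called by edgeR, and their sum was 12542 and 10025 CPM in DA and 17997 and 21939 CPM in LEW. In the same test 1 T marker had a log2 difference of 0.91 and was not called. The 5 endothelial markers had a median of -0.31 with 1 called higher in DA, and 5 Kupffer and 19 hepatocyte markers had medians of -0.25 and -0.28. The part of these cells in the members' differences was not tested. Members were therefore also set against the NK-marker UMIs of the same cells. Gzma gave 7.60 and 9.75 UMIs per 100 NK-marker UMIs in the DA homogenate rats and 9.18 in the DA immune-enriched library, against 18.9, 16.7 and 19.5 in LEW. Ccl5 made up 83.1% to 89.0% of NK-marker UMIs, and without it Gzma stood at 69.3, 69.1 and 65.2 in DA against 138, 137 and 116 in LEW. Nkg7 stood at 5.19 and 6.70 in DA and 7.63 and 8.14 in LEW homogenate, but at 4.31 and 4.70 in the immune-enriched libraries, below every homogenate rat. Gzmk (1.32 and 2.5 against 2.66 and 2.27) and Prf1 (3.73 and 5.47 against 5.83 and 3.99) overlapped between strains on this scale, as did Gzmm, Klrd1, Ncr1 and Tbx21. Klrb1a went the other way, at 2.28 and 3.01 in DA against 2.12 and 1.63 in LEW homogenate, and at 3.59 against 3.20 in the immune-enriched libraries. Without Ccl5, Klrb1a stood at 20.8, 21.4 and 25.5 in the DA libraries and at 15.4, 13.3 and 18.9 in the LEW libraries. No share over all genes was computed on this scale. Nkg7 without Ccl5 was higher in LEW homogenate (55.6 and 66.6 against 47.3 and 47.5) and lower in the LEW immune-enriched library (27.8 against 30.6). Gzmk without Ccl5 was higher in both LEW homogenate rats, whereas Gzmm was higher in both DA homogenate rats. Prf1, Klrd1, Ncr1 and Tbx21 still overlapped between strains in homogenate.

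**Figure D5:**
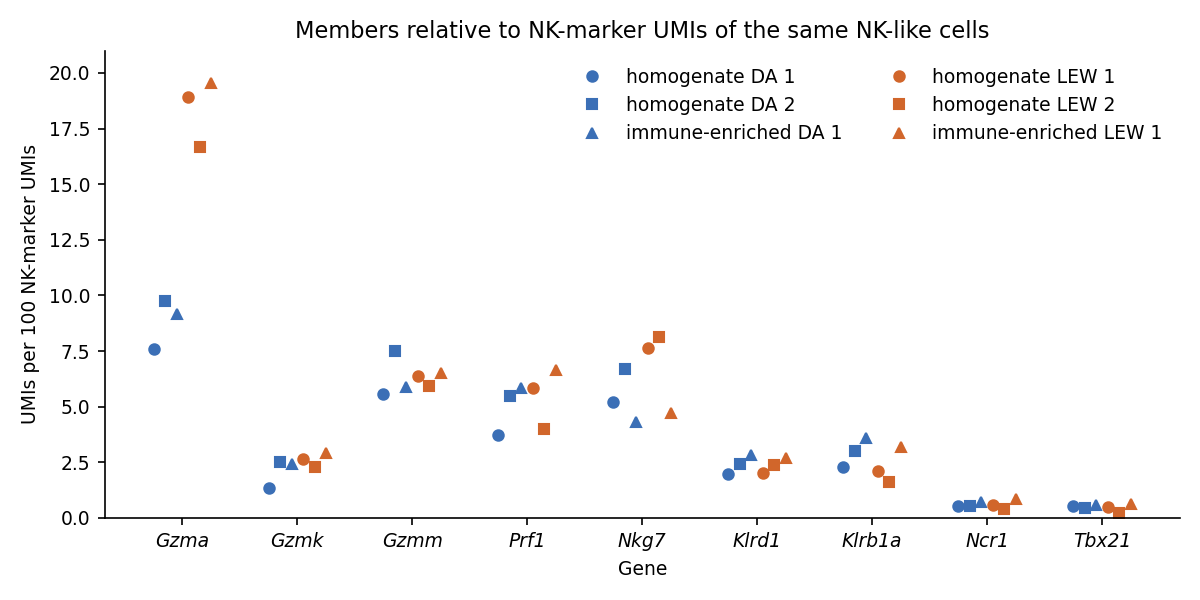
UMIs of each member per 100 UMIs of the 14 NK markers (y axis, linear) in the NK-like cells of 6 libraries, DA in blue and LEW in orange; circles and squares are homogenate rats 1 and 2 and triangles the immune-enriched libraries. Gzma points lie at 16.7 to 19.5 in LEW and at 7.60 to 9.75 in DA.

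Of 63 further genes of the cytotoxic programme, listed by role, 27 could be tested in homogenate NK-like cells and 3 were called, all higher in LEW, beside 0.961% of all genes called higher in LEW: the chemokine genes Ccl3 (log2 difference 1.51 ± 0.32 SE, adjusted p = 0.0384, edgeR) and Ccl4 (1.07 ± 0.21, adjusted p = 0.0313), and Tyrobp, the adaptor DAP12 of activating receptors (0.90 ± 0.18, adjusted p = 0.0313). The median of the 27 was 0.75. Among them, Ccl5, Xcl1, Ctsw, Cst7, Klrk1, Klre1, Klrb1c and Il2rb are also NK markers. This median and that of the NK markers therefore rest in part on the same genes. Over whole homogenate libraries 39 of the 63 were tested and 4 called higher in LEW, beside 2.54% of all genes: Ccl3 and Ccl4 again, Hopx (adjusted p = 0.0273) and Ctsw (0.0489), while Tyrobp was not called (0.156). Whole libraries hold all cell types, and the study also describes Ccl3 and Tyrobp in myeloid cells. The part of such cells in the calls of either test was not tested. The counts by role that follow are those of the NK-like test. Of 6 genes of granule content and release, 0 were called. Ctsw, a granule protease (1.25 ± 0.68), and Serpinb9, which protects the cell from granzyme B (1.23 ± 0.48), had the highest values. Lamp1 stood at 0.01. Of 11 receptors and adaptors 1 was called, and of 2 cytokine receptors, 2 transcription factors and 1 trafficking gene 0 were. Hopx, a transcription factor gene of effector lymphocytes, stood at 1.42 ± 0.37 with an adjusted p of 0.0730.

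Over whole homogenate libraries, with no cluster used, the same 4 members were called higher in LEW, beside 2.54% of 11133 genes. Gzma rose from 21.5 and 14.7 CPM in DA to 66.0 and 60.1 CPM in LEW (log2 difference 1.84 ± 0.19 SE, adjusted p = 0.00233, edgeR). Gzmk had a log2 difference of 1.23 (adjusted p = 0.0167), Nkg7 1.22 (0.0141) and Prf1 0.84 (0.0459). In such sums, more NK-like cells and more mRNA per cell cannot be told apart. The 10 NK markers tested had a median log2 difference of 0.75 with 1 called higher in LEW, and the 9 members one of 0.75. Markers of other cells were set beside them: 6 T markers had a median log2 difference of 1.08 with 1 called higher in LEW, 9 Kupffer markers 0.65 with 0 called, and 11 endothelial markers -0.59 with 3 called higher in DA. Their part in the members' differences was not tested. Both LEW rats were above both DA rats in 6 of 9 members, all but Klrb1a, Ncr1 and Tbx21, beside 27.7% of all genes. Without LEW rat 1 no member was called, with Gzma at an adjusted p of 0.0568, and without LEW rat 2 Gzma alone was (0.0403). Without DA rat 2, Gzmk (0.0607) and Prf1 (0.161) lost their calls.

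The share of NK-like cells depended on how they were counted. By clusters it was 2.04% and 1.34% of kept cells in the DA rats and 1.83% and 1.51% in the LEW rats. The LEW values lay between the DA values, with a mean difference of -0.016 percentage points (two-sided exact permutation p = 1, where the smallest p that 2 against 2 allows is 0.333). With an NK gate on marker genes in place of clusters, the share was 0.966% and 0.900% in DA and 1.30% and 1.22% in LEW, so both LEW rats lay above both DA rats (exact permutation p = 0.333, again the smallest possible). With the LEW limit of 1500 UMIs and all cells clustered anew the mean difference was -0.504 points, and the strains overlapped. Limits on kept cells differed between rats, at 1500 UMIs and 30% mitochondrial in DA rat 1 and 2000 and 20% in DA rat 2. Both LEW rats had 2000 and 40%, and the part of these limits in the shares was not tested.

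Nuclei held few member UMIs, and no member was called. Only Gzma, Prf1, Klrd1 and Klrb1a had enough UMIs to be tested, beside 1.46% of 11650 genes called in either direction. Gzma stood at 4.40 and 2.38 CPM in DA and 2.95 and 3.46 CPM in LEW nuclei, with a log2 difference of -0.0033 ± 0.47 (SE). The strains overlapped. Prf1 stood at 3.40 and 5.72 CPM in DA and 2.21 and 1.59 CPM in LEW (log2 difference -1.14 ± 0.45 SE, adjusted p = 0.339, edgeR). Klrd1 (-0.66) and Klrb1a (-0.56) also had both DA rats above both LEW rats, as did 21.7% of all genes. No NK-like or T-like class was found in nuclei. The 318 Kupffer-like nuclei had Prf1 at 24.6 CPM, Gzma at 18.9 and Klrd1 and Klrb1a at 16.1 each. These levels rest on 17 to 26 UMIs in 9 to 13 nuclei for each gene. In hepatocyte-like nuclei the same genes stood at 0.658, 1.48, 0.575 and 0.493 CPM. The highest member levels were in an unnamed cluster of 51 nuclei led by Cd74, RT1-Bb and Lyz2, with Prf1 at 284 CPM, Klrb1a at 175, Gzma at 164 and Tbx21 at 142, from 13 to 26 UMIs each. Of the further genes, 26 were tested in nuclei and 1 was called, Ccl4, higher in DA (log2 difference -2.08 ± 0.35 SE, adjusted p = 0.0139, edgeR). Over whole homogenate libraries Ccl4 was called in the opposite direction, higher in LEW (0.96 ± 0.17 SE, adjusted p = 0.0168, edgeR). The difference between these preparations was not tested.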

How the data were processed

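Livers of DA and LEW rats were measured as cells (total liver homogenate, immune-enriched) or nuclei, and Wistar livers as sections. The authors aligned and counted reads with Cell Ranger 3.1.0 (sections with Space Ranger 1.1.0) on a Rnor 6.0 reference, and the deposited tables are UMI counts before any normalisation or cell filter, with genes as rows. Homogenate and immune-enriched tables carry no gene names, so their rows were named by position from the nuclei gene list of 32883 genes. Those named rows gave the marker genes of each class together, but the order is not stated in the sources used here.

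Limits on UMIs and mitochondrial share were those of the study but for LEW homogenate (1000 UMIs and 50% in immune-enriched cells, 1000 and 10% in nuclei, 1500 and 30% or 2000 and 20% in DA homogenate, 2000 and 40% in LEW homogenate, where the study states 1500 UMIs). Counts without the members were normalised with sctransform 0.4.2 and clustered in Seurat 5.3.0, and clusters were named from at least 3 markers. The naming of hepatocyte-like clusters was revised after their values were seen. Strain tests used edgeR 4.0.16 in R 4.3.3 on UMI sums per rat (TMM, filterByExpr, robust quasi-likelihood fit, Benjamini-Hochberg at 0.05), with DESeq2 1.42.0 as an alternative, and were tested on simulated data. The p-values of these tests rest on the spread between 2 rats per strain, which the fit shares in part over all genes tested. They cover no other source of spread. Scrublet in scanpy 1.11.5 called 1 to 15 cells per library as doublets, too few to have worked in homogenate, so no cell was removed and leaving out the 6% with the highest scores was an alternative. The members, the 63 further genes and the markers were chosen with earlier results of these data known, and the study used several members to describe its NK-like cluster, so their presence there is not independent evidence. All 10 members are named. For likeness, the 10 genes nearest to the summed members and the 3 nearest to each member were taken among genes with at least 50 UMIs. The listed symbol Fasl is not in the gene list, which has Faslg, and was not counted. Promoters were taken from RefSeq (GRCr8), where 8 members matched. The authors' own comparisons were not used.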

Additional observations from a re-analysis of the deposited data

Results flagged for a closer look

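Barcodes left out by the limits on UMIs and mitochondrial share still carried members, outside every comparison above. At least 3 members were found in 37 and 43 left-out barcodes of the DA homogenate rats, in 19 and 59 of the LEW homogenate rats and in 15 of the DA immune-enriched library. In nuclei the numbers were 8 and 11 in DA and 7 and 11 in LEW. In LEW homogenate rat 2 the 59 left-out barcodes compare with 65 kept ones, all of them under the UMI limit with a median of 1757 UMIs, just below 2000, whereas LEW homogenate rat 1 had 102 kept and 19 left out. In the DA immune-enriched library 12 of the 15 were left out by mitochondrial share alone.

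The Visium sections of Wistar liver, which enter no comparison, held 727 and 777 member UMIs. Gzma gave 167 and 199 UMIs in 6.11% and 7.32% of 2437 and 2404 spots. Prf1 followed with 125 and 157, Nkg7 with 124 and 127, and Gzmm with 103 and 87 UMIs. Gzmb gave 0 in both sections. A spot covers several cells, and no control section was measured.

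Prf1 and Klrd1 had strain differences of opposite sign in cells and nuclei. Over whole libraries, Prf1 had a log2 difference (LEW minus DA) of 0.84 in homogenate and -1.14 in nuclei, and Klrd1 of 0.75 and -0.66. Both LEW rats lay above both DA rats in homogenate, as in 27.7% of all genes tested there. In nuclei both DA rats lay above both LEW rats, as in 21.7% of all genes. The share of genes with both patterns was not computed. The difference between preparations was not tested, and of the 4 values Prf1 in homogenate alone passed its own test.

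No group had 4 or more samples, and so none was tested for a sample that stands apart.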

How the results depend on the processing

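In NK-like cells of homogenate, 60 genes were called, 111 with the highest Scrublet scores left out, 126 with an NK gate in place of clusters, 33 by DESeq2, 117 with no filter on low counts, and 67 to 193 when 1 rat was left out. Of the 9 members tested, 4 were called, and 6 of the 8 tested with the NK gate, beside 48 of 1929 genes called higher in LEW. The count of members called was 4 with the highest Scrublet scores left out, 3 with no filter and 2 with RLE size factors. It was 2 by DESeq2, 2 with the members kept in the clustering and 1 with the LEW limit of 1500 UMIs and new clusters. Tbx21 turned to -0.21 without LEW rat 1 and was at most 0.66 with another rat left out. Nothing in the labels pairs same-numbered rats of the strains, and their deviations had correlations of -0.058, -0.163 and 0.107 in NK-like cells, whole homogenate and nuclei. With a replicate block, 0 genes and 0 members were called by edgeR in NK-like cells (329 genes at an unadjusted p under 0.05), 397 genes in whole homogenate, where 4 members were called, and 262 in nuclei.

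In whole homogenate, 607 genes were called, 1538 with no filter on low counts and 114 to 749 when 1 rat was left out, with 0 to 5 members. With all deposited barcodes, chosen after seeing the data, 1 member was called, and Klrb1a (-0.25), Ncr1 (-0.16) and Tbx21 (-0.41) turned. With 1 rat left out, they ran from -0.12 to 0.47, from -0.026 to 0.92 and from -0.18 to 1.03. In nuclei, 170 genes were called, 273 by DESeq2, 622 with no filter and 175 to 362 when 1 rat was left out. The near-zero Gzma difference there turned to 0.35 with all barcodes, 0.0021 with RLE, 0.031 with no filter and 0.014 with the replicate block, and ran from -0.47 to 0.59 when 1 rat was left out. The NK-like share difference was 0.329 points with the gate, where the strains did not overlap, -0.504 with the LEW limit of 1500 UMIs and new clusters, -0.101 with the members kept in the clustering, 0.0699 without the highest Scrublet scores, and -0.368 to 0.335 when 1 rat was left out. The summed members in immune-enriched NK-like cells were 15459 CPM (DA) and 19875 CPM (LEW) with the gate, and in DA 20112 CPM at 2000 UMIs and 20% mitochondrial and 18688 CPM as a mean over cells. The share with all 3 granzymes was 38.6% (DA) and 40% (LEW) after thinning and 47.0% and 60.0% at a minimum of 2 UMIs. Of 107 alternative member differences in NK-like cells, 86 kept their direction and side of the threshold. In whole homogenate 57 of 81 did and 8 were reversed, and in nuclei 30 of 36 did and 6 were reversed. Of 100 alternative member levels in immune-enriched NK-like cells, 24 left the counting interval, and of 100 in T-like cells 16 did. Causes were not tested. Few UMIs limit the precision of Ncr1 and Tbx21 in homogenate and of every member in nuclei.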
